A study of Homo sapiens with 30 samples.

Results

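The mitochondrial respiratory chain was described here as 105 protein-coding genes of the 58735 genes in the deposited count table, 92 of them encoded in the nucleus and all 13 protein genes of the mitochondrial genome. Members were taken by symbol, as genes named for complex I (37 nuclear and 7 mitochondrial genes), complex II (4 nuclear), complex III (10 and 1), complex IV (19 and 3) and ATP synthase, or complex V (21 and 2), and cytochrome c. By this rule the readthrough genes NDUFC2-KCTD14 and ATP5MF-PTCD1 are members. NDUFAB1 is not, and it was counted with the complex I assembly list. NDUFA4 and NDUFA4L2 were placed with complex IV, where the NDUFA4 protein is now known to belong. The rule itself used no expression value, but it was set with earlier results of these data known.

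The chain passes electrons from NADH (complex I) or succinate (complex II) through complex III and cytochrome c to oxygen at complex IV, and the proton gradient this builds drives ATP synthase. Complexes I, III, IV and V need subunits from both genomes, so their assembly draws on transcripts made in the nucleus and in mitochondria. All mitochondrial mRNAs are cut from long transcripts of a small circular genome, whereas each nuclear gene has its own promoter. Nuclear respiratory factor 1 (NRF1) is a transcription factor known for binding the promoters of many nuclear members.

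The study used LNCaP, an androgen-dependent human prostate cancer cell line, carrying an shRNA against mTOR in all 30 libraries. By an inducible system the knockdown cells were rescued with WT-mTOR (WT), NES-mTOR, which carries a signal for nuclear export (NES), NLS-mTOR, which carries one for nuclear localization (NLS), or NLS-mTOR made kinase dead by D2357E (NLSKD), or they received an empty vector (EV). Each of these 5 lines spent 48 h in 2% charcoal-stripped serum, which is poor in steroids, and then received 10 nM of the synthetic androgen R1881 or ethanol vehicle (0.1%) for 24 h. The 10 groups hold 3 libraries each, and cells free of the shRNA were not analysed here. Nothing in the labels says whether replicates were separate cultures, so p-values measure the spread between these libraries, which may be technical.

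Gene counts per library ran from 21435364 to 61762468. MTOR ran from 596 to 7593 CPM (counts relative to library size, scaled by edgeR's TMM factors) in the 24 libraries of the 4 rescue lines, where reads of the construct and of the cells' own gene cannot be told apart, and from 20.3 to 73.9 CPM in the 6 EV libraries. All 7 luminal prostate markers were present at median levels of 270.2 to 1537 CPM, and the 13 markers of basal, stromal, blood, vessel and muscle cells had medians of at most 13.7 CPM. After a filter on low counts 18296 genes were tested, among them 97 members, 84 nuclear and 13 mitochondrial. The 8 members below the filter were NDUFC2-KCTD14, COX4I2, COX6A2, COX6B2, COX7A1, COX8C, ATP5MF-PTCD1 and ATP5MGL. Among them are the tissue-restricted complex IV isoforms COX4I2, COX6A2, COX6B2, COX7A1 and COX8C.

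The sequences below belong to the nuclear members NDUFB4 and COX7B2 and to the mitochondrial member MT-ATP8. The first 2 are RefSeq promoters (GRCh38.p14, 250 bases before to 50 after the start site) of the complex I gene NDUFB4, which was lower under R1881, at chr3:120596086-120596385 on the plus strand, and of the complex IV gene COX7B2, which was lower in WT cells than in EV cells, at chr4:46909196-46909495 on the minus strand. Capitals mark matches to GCGCA, then any base, then GCGC, a relaxed form of the NRF1 motif, searched on both strands with a palindromic match counted once.
NDUFB4: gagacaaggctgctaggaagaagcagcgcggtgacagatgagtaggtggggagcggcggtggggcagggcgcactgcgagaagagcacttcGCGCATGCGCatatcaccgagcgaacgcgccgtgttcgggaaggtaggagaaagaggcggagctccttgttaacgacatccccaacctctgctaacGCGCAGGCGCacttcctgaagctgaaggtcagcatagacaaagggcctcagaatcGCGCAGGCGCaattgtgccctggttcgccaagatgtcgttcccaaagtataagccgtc
COX7B2: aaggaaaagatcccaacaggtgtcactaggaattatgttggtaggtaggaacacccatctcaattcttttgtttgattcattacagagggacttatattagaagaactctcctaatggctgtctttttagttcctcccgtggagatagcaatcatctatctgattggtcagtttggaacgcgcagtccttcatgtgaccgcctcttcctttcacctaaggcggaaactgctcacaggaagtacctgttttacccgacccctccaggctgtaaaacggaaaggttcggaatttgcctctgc
MT-ATP8: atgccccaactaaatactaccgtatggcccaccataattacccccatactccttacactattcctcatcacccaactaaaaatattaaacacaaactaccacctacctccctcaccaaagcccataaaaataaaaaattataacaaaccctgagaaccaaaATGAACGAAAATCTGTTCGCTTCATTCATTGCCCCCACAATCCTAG
The last sequence is the whole MT-ATP8 gene on the plus strand of the mitochondrial genome (bases 8366 to 8572, GENCODE 29 transcripts on GRCh38), with the 46 bases it shares with MT-ATP6 in capitals. The NDUFB4 promoter held 3 distinct matches, starting 159, 63 and 8 bases before the start site, and the first of them is also the full palindrome, GCGCA followed by TGCGC. The SDHA promoter held more, 4 matches to the relaxed motif, and these 2 were the only members with 3 or more. Promoters were found for 69 of the 92 nuclear members, and 16 of the 69 (23.2%) held the relaxed motif, against 5.78% of all 35116 promoters in the table. The full palindrome occurred in 4 of the 69 (5.80%), those of NDUFB4, NDUFA8, SDHD and ATP5F1C, against 1.24% of all promoters. The ETS-type motif CCGGAAG occurred in 27.5% of member promoters and 10.3% of all. The full androgen response element (AGAACA, any 3 bases, TGTTCT) was in 0 of the 69 and in 0.003% of all promoters, and its hexamer AGAACA was in 10.1% and 14.8%. These matches describe the letters of the windows and are not measured binding. NDUFC2 and NDUFA4L2 had no entry.

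Levels between genes were compared per length, as the deposited FPKM (fragments scaled to gene length and library size). The 13 mitochondrial mRNAs had a median mean level of 3210 FPKM over the 30 libraries, against 26.7 FPKM for the 92 nuclear genes. MT-CO1, the catalytic core of complex IV, was the most abundant at 8929 ± 2961 FPKM (SD over 30 libraries), and it ranked first of the 13 in 20 libraries. MT-CO2 (8082 ± 2602) and MT-CO3 (7248 ± 2423), the other two mitochondrial complex IV subunits, followed, and MT-CO2 ranked first in 8 libraries. These 3 neighbours lay closer together than their spread over libraries. MT-ATP6 had 6400 ± 2140 FPKM, and MT-CYB, the mitochondrial subunit of complex III, had 4096 ± 1283 FPKM.

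The 7 mitochondrial complex I subunits covered a wide range. MT-ND4 had 5034 ± 1678 FPKM, MT-ND1 3210 ± 991, MT-ND2 3203 ± 1001 and MT-ND4L 2947 ± 1079 FPKM. MT-ND3 (1639 ± 737), MT-ND6 (1235 ± 459.5) and MT-ND5 (1059 ± 314) were the lowest of the complex I mRNAs. MT-ATP8 was last of all in 30 of 30 libraries, at 311.5 ± 149 FPKM. It lies on the same transcript as MT-ATP6 and shares 22.2% of its bases with it, and how the authors' counting assigned reads over those bases is not given in the sources used here.

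Among nuclear genes the highest level was that of ATP5F1B, the catalytic beta subunit of ATP synthase, at 699.7 ± 50.5 FPKM. NDUFS5 led complex I at 333 FPKM, COX8A led complex IV at 192 FPKM, UQCRH led complex III at 158 FPKM and SDHD led complex II at 32.0 FPKM. The electron carriers cytochrome c (CYCS, 84.04 ± 10.4 FPKM) and cytochrome c1 (CYC1, 109 ± 26.3 FPKM) were within the range of complexes III and IV. In complex II, the only one without a mitochondrial gene, the flavoprotein SDHA had 17.4, the iron-sulfur subunit SDHB 22.9 and the membrane anchor SDHC 12.5 FPKM. The common isoforms COX4I1 (62.5 FPKM), COX6A1 (51.0), COX6B1 (136), COX7A2 (61.1), COX7B (33.5) and NDUFA4 (66.4) were all measured in every library. COX7B2, a paralogue of COX7B, had 1.38 FPKM and NDUFA4L2, a hypoxia-induced paralogue of NDUFA4, 13.5 FPKM.

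**Figure D1:**
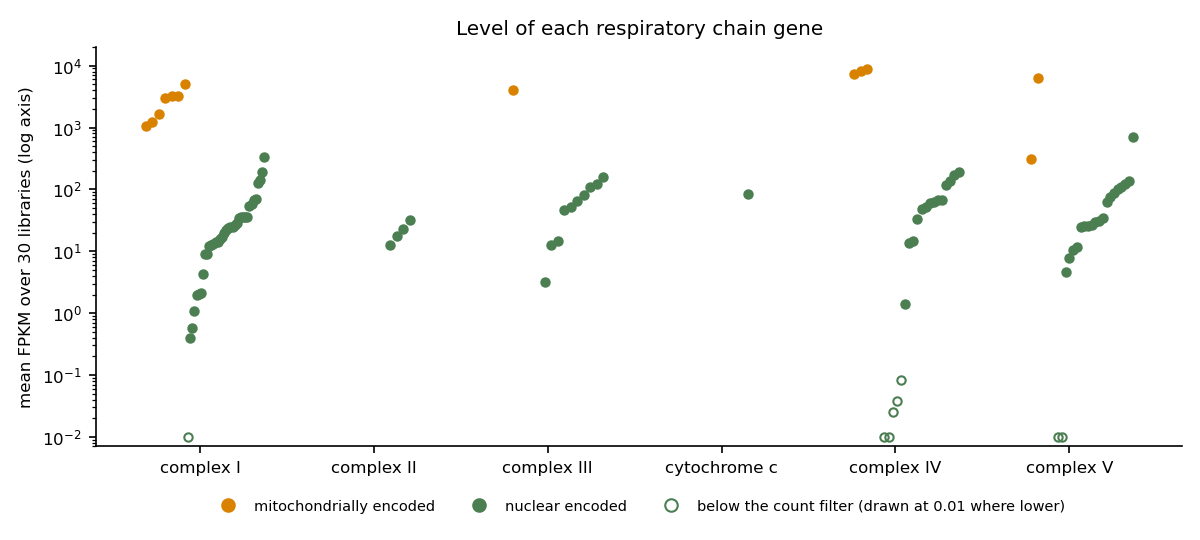
Mean FPKM over 30 libraries (vertical log axis) of the 105 genes, grouped by complex; each point is 1 gene, orange for the mitochondrial and green for the nuclear genome, and open points are the 8 genes below the count filter. The mitochondrial genes lie between 311.5 (MT-ATP8) and 8929 FPKM (MT-CO1), while the highest nuclear gene, ATP5F1B, has 699.7 FPKM.

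Some subunits of complex I were listed at very low levels. NDUFV2, which carries an iron-sulfur cluster of the NADH-oxidizing arm, had 0.399 FPKM, NDUFA7 0.573 FPKM and NDUFA13 1.09 FPKM. In all 10 tested nuclear members had less than 5 FPKM, and 6 of these 10 share exonic bases on the same strand with another annotated gene, against 18 of the 74 tested at 5 FPKM or more. NDUFV2 shares 28.4% of its exonic bases with AP005263.1, which has 0 counts in all libraries. The part of such overlaps, or of processed pseudogenes, in the low values was not tested, and these entries are uncertain as levels of the intact mRNAs. ATP5S, the lowest tested ATP synthase gene, had 4.56 FPKM. UQCRHL (3.22 FPKM) is a near copy of UQCRH, and counts between those copies are uncertain.

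The summed share of counts was first compared between the arms. In the 30 libraries the 13 mitochondrial genes took 2.77% to 8.92% of all gene counts (median 4.99%), a 3.22-fold range, and the 92 nuclear genes took 0.885% to 1.57% (median 1.20%), a 1.78-fold range. The mitochondrial sum was 2.57 to 6.83 times the nuclear sum. Under R1881 the mitochondrial share averaged 4.05% ± 0.664 in WT, 5.04% ± 1.67 in NES, 5.44% ± 0.817 in NLS, 5.12% ± 1.84 in NLSKD and 4.69% ± 1.67 in EV (SD, n = 3 each). With vehicle it was 5.16% ± 1.20 in WT, 4.60% ± 1.42 in NES, 5.77% ± 2.05 in NLS, 6.38% ± 2.57 in NLSKD and 5.55% ± 2.13 in EV. The groups overlapped in every pair compared, R1881 against vehicle in each line and each rescue line against EV under each treatment. Between libraries of the same number the mitochondrial share was lower under R1881 in 3 of 3 pairs in WT, NLSKD and EV, in 2 of 3 in NLS and in 1 of 3 in NES. With 3 pairs a two-sided exact test over pairs cannot go below p = 0.25, so these counts are a description.

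The nuclear share was steadier. Under R1881 it averaged 1.15% ± 0.0661 in WT, 1.18% ± 0.131 in NES, 1.22% ± 0.345 in NLS, 1.24% ± 0.222 in NLSKD and 1.17% ± 0.153 in EV. With vehicle the means were 1.17% ± 0.0719 in WT, 1.24% ± 0.171 in NES, 1.31% ± 0.207 in NLS, 1.26% ± 0.0486 in NLSKD and 1.20% ± 0.185 in EV. Again no pair of groups was free of overlap, and the R1881 library was the lower one of its pair in 3 of 3 in WT and NES, 2 of 3 in NLSKD and EV and 1 of 3 in NLS. For both arms these shares are of raw library totals. The TMM factors used for CPM and fold changes were lower under R1881 in every same-number pair, for example 0.9836 against 1.0231 in WT replicate 1. TMM scaling would raise the R1881 values relative to vehicle, so these pair counts hold for raw shares only. In bulk RNA a lower share in fewer cells and less RNA per cell cannot be told apart.

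**Figure D2:**
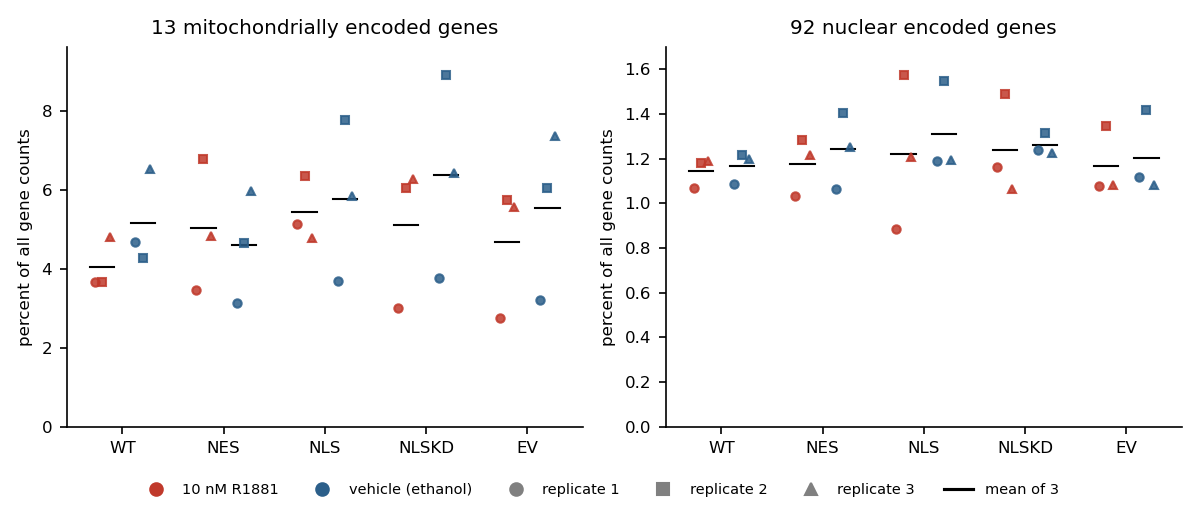
Percent of all gene counts taken by the 13 mitochondrial genes (left) and the 92 nuclear genes (right), by line (horizontal) and treatment (R1881 left of vehicle); points are libraries, shapes are replicate numbers and lines are means of 3. The groups overlap in both panels, and libraries numbered 1 tend to lie low.

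The spread followed the replicate number. Libraries numbered 1 had the lowest mitochondrial share in 7 of the 10 groups and the highest in 0, and libraries numbered 2 had the highest nuclear share in 9 of 10. The median mitochondrial share was 3.58% in libraries numbered 1, 6.06% in those numbered 2 and 5.92% in those numbered 3. Mitochondrial ribosomal RNA counts moved alike: libraries numbered 1 had their group's lowest share in 8 of 10 groups. On the log2 scale the median SD within a group was 0.53 for mitochondrial members and 0.41 for nuclear members, against 0.33 for all tested genes. The SD of group means was smaller for both arms (0.18 and 0.16) than for all tested genes (0.23). By these medians the members varied more than other genes between libraries of a group and less between groups.

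MT-CO1 shows how far single libraries differed. MT-CO1 had 9948, 20630 and 15470 CPM in NES cells under R1881 and 8594, 11930 and 17160 CPM in NES cells with vehicle. In EV cells it had 7213, 15570 and 16000 CPM under R1881 and 7291, 15530 and 20150 CPM with vehicle. The low value was in the library numbered 1 each time, and the treatments overlapped. 

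The response to androgen was compared in each line. Genes were tested with edgeR's quasi-likelihood test over all 30 libraries and called at a Benjamini-Hochberg adjusted p below 0.05 over the 18296 genes. R1881 changed many genes but few members of the chain. Against vehicle, 1 of the 97 members was called in WT (6.48% of all genes tested were called), 1 in NES (8.25%), 0 in NLS (4.44%), 0 in NLSKD (4.08%) and 0 in EV (9.11%). In NLS, NLSKD and EV 1 member each had an unadjusted p below 0.05, and DESeq2 and limma each called 0. The member called in WT and NES was NDUFB4 both times.

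NDUFB4 (ENSG00000065518, hg38 chromosome 3, 120596309 to 120602500) is an accessory subunit in the membrane arm of complex I. Its exons overlap no other annotated gene. In WT cells it had 218, 250.0 and 269.7 CPM under R1881 and 449, 464 and 544 CPM with vehicle. In NES cells it had 172, 299.7 and 279 CPM under R1881, against 477.5, 600.4 and 543 CPM with vehicle. Every R1881 library lay below every vehicle library in these 2 lines. The log2 fold changes were -0.98 ± 0.25 in WT (standard error here and below; edgeR adjusted p = 0.0146) and -1.11 ± 0.25 in NES (adjusted p = 0.00476).

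In the other lines the values leaned the same way with overlap. NDUFB4 had 194, 391.6 and 284 CPM under R1881 and 371.5, 571 and 459.9 CPM with vehicle in NLS cells. NLSKD cells had 234, 393 and 279 CPM under R1881, against 369, 591 and 443 CPM with vehicle. EV cells had 191, 306 and 213 CPM under R1881 and 291, 381 and 372 CPM with vehicle. Within each of these 3 lines the R1881 library was lower than the vehicle library of the same number, although 1 R1881 library reached into the vehicle range. The log2 fold changes were -0.69 ± 0.25 in NLS (edgeR adjusted p = 0.160), -0.63 ± 0.25 in NLSKD (adjusted p = 0.249) and -0.56 ± 0.25 in EV (adjusted p = 0.211). With the replicate number as a block, fitted as 1 effect over all 30 libraries, NDUFB4 was called in all 3. The edgeR log2 fold changes were -0.57 in EV (adjusted p = 0.00797), -0.64 in NLSKD (0.00581) and -0.71 in NLS (0.00178). The pairing check holds in EV and NLSKD but not in NLS, and the block was applied to all groups alike. The WT call was lost (adjusted p up to 0.0694) when WT R1881 replicate 1, WT R1881 replicate 2 or WT vehicle replicate 3 was left out, and the NES call was not lost with any library left out.

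Whether the androgen response differed among the 5 lines was tested directly. Of all genes 5 were called (0.0273%), and 0 were members; 0 members had an unadjusted p below 0.05, and DESeq2 and limma called 0. For NDUFB4 that unadjusted p was 0.475. The mean response over the 5 lines was therefore also tested, with 15 libraries under each treatment. It called 5013 genes (27.4% of those tested) but 3 of the 97 members, 1 lower (13.9% of all genes were called lower) and 2 higher (13.5%). DESeq2 called 2 members and limma 2, 1 in each direction with each tool. The count rests on the fit: with the replicate block edgeR called 10 members, 9 higher and 1 lower, and without the low-count filter 12, 11 higher and 1 lower.

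NDUFB4 fell by 0.79 on the log2 scale over the 5 lines (-0.79 ± 0.11, 95% interval -1.03 to -0.56, edgeR adjusted p = 3.71e-06), and stayed called with any single library left out. NDUFC1, another accessory subunit of the complex I membrane arm, was higher (0.48 ± 0.17, adjusted p = 0.0327). It had 36.8, 48.1 and 47.5 CPM in WT cells under R1881, against 25.3, 33.2 and 33.2 CPM with vehicle. In EV cells it had 58.3, 86.7 and 61.1 CPM under R1881, against 36.3, 66.2 and 33.2 CPM with vehicle. The WT groups were apart and the EV groups overlapped. NDUFC2, the partner of NDUFC1 in that arm, was called with a smaller difference (0.24 ± 0.09, adjusted p = 0.0450), and its libraries ran from 28.3 to 44.0 CPM under R1881 and from 24.2 to 45.2 CPM with vehicle. Leaving out single libraries ended the NDUFC1 call in 15 of 30 cases (adjusted p up to 0.0791) and the NDUFC2 call in 23 of 30 (up to 0.103), and DESeq2 did not call NDUFC2 (adjusted p = 0.0512) nor limma NDUFC1 (0.0559). The NDUFC2 call was also lost with RLE factors (edgeR adjusted p = 0.0645) and without the low-count filter (0.150). NDUFC1 shares 18.5% of its exonic bases with MGARP on the same strand, and NDUFC2 shares 16.3% with the readthrough gene NDUFC2-KCTD14, which has 0 counts.

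**Figure D3:**
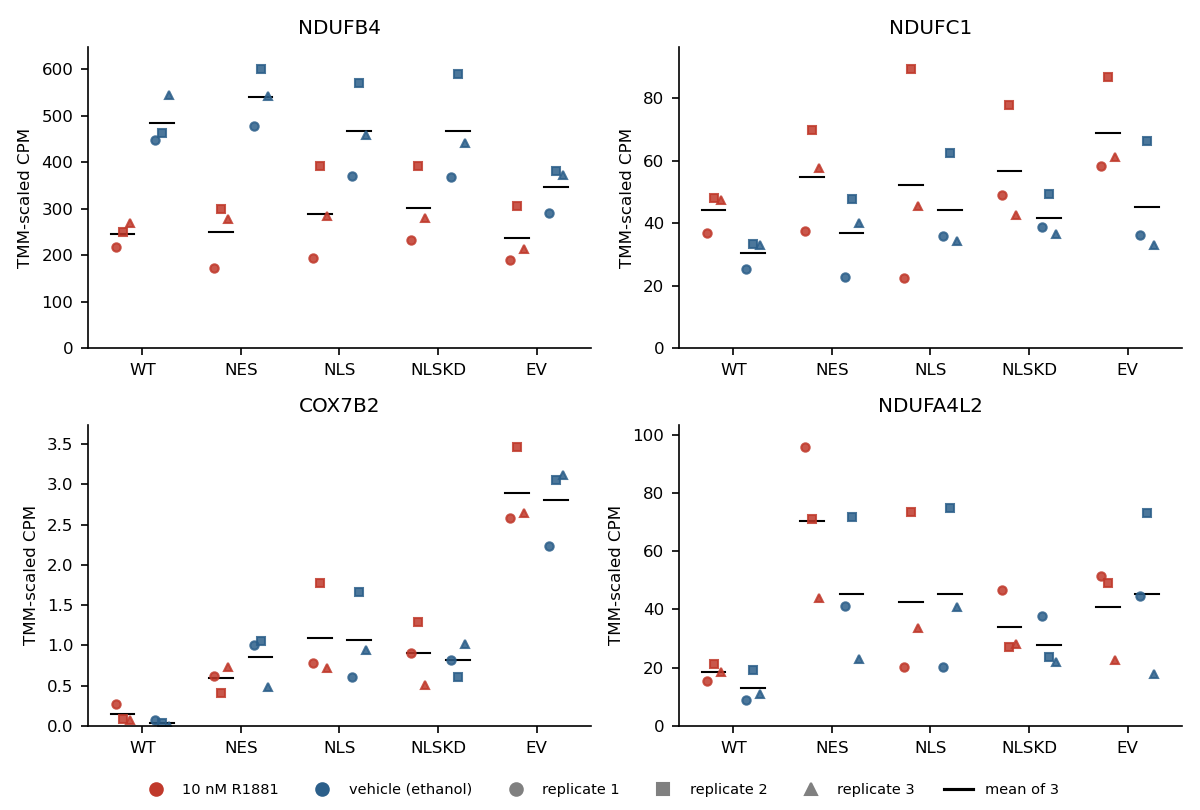
TMM-scaled CPM of NDUFB4, NDUFC1, COX7B2 and NDUFA4L2 by line (horizontal) and treatment (R1881 left of vehicle); points are libraries, shapes are replicate numbers and lines are means of 3. NDUFB4 lies lower under R1881 in all 5 lines, and COX7B2 is near 0 in WT and highest in EV (2.23 to 3.46 CPM).

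By complex, members other than NDUFB4 moved little. Over the 5 lines the median log2 fold change for R1881 was 0.13 in nuclear complex I (29 of 36 members above 0), -0.05 in complex II (0 of 4), 0.10 in nuclear complex III (9 of 10), 0.12 in nuclear complex IV (14 of 14) and 0.06 in nuclear complex V (13 of 19). For the 84 nuclear members together it was 0.10 with 66 above 0, beside a median of -0.00 and 49.7% above 0 for all genes tested. The summed nuclear share leaned the other way, with log2 differences of -0.02 in WT, -0.07 in NES, -0.13 in NLS, -0.04 in NLSKD and -0.04 in EV. The median gives each gene the same weight and rests on TMM-scaled totals. The sum weights genes by their counts and is a share of raw totals. TMM factors were lower under R1881 than with vehicle in every same-number pair. The part of weighting and of scaling in the opposite lean was not tested. The 95% interval of the log2 fold change stayed within 2-fold in both directions for 83 of the 84 nuclear members, NDUFB4 being the exception.

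The catalytic and carrier genes illustrate these small values. CYCS had a log2 fold change of 0.10 and lay between 324 and 494 CPM under R1881 and between 289 and 447 CPM with vehicle. The complex II genes SDHA, SDHB, SDHC and SDHD all had values between -0.07 and -0.03, the only nuclear group with no member above 0. SDHB, for example, had 56.1, 50.6 and 59.5 CPM in WT cells under R1881 and 51.97, 60.7 and 55.9 CPM with vehicle. Those treatments overlapped.

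None of the 13 mitochondrial members was called in any of the androgen comparisons, by edgeR with the low-count filter, DESeq2 or limma, and 0 had an unadjusted p below 0.05 in any of them with edgeR. Over the 5 lines the median was -0.08 and 12 of the 13 had a value below 0. The lowest was MT-ND2 (-0.17 ± 0.16) and the highest MT-ATP8 (0.25 ± 0.20), whose intervals ran from -0.49 to 0.15 and from -0.16 to 0.66. The 95% intervals of all 13 lay within 2-fold in both directions. MT-CO1 had -0.06 ± 0.19 and MT-CYB -0.08 ± 0.17, so changes of 2-fold or more under R1881 lie outside the intervals of these mRNAs, while smaller ones do not.

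**Figure D4:**
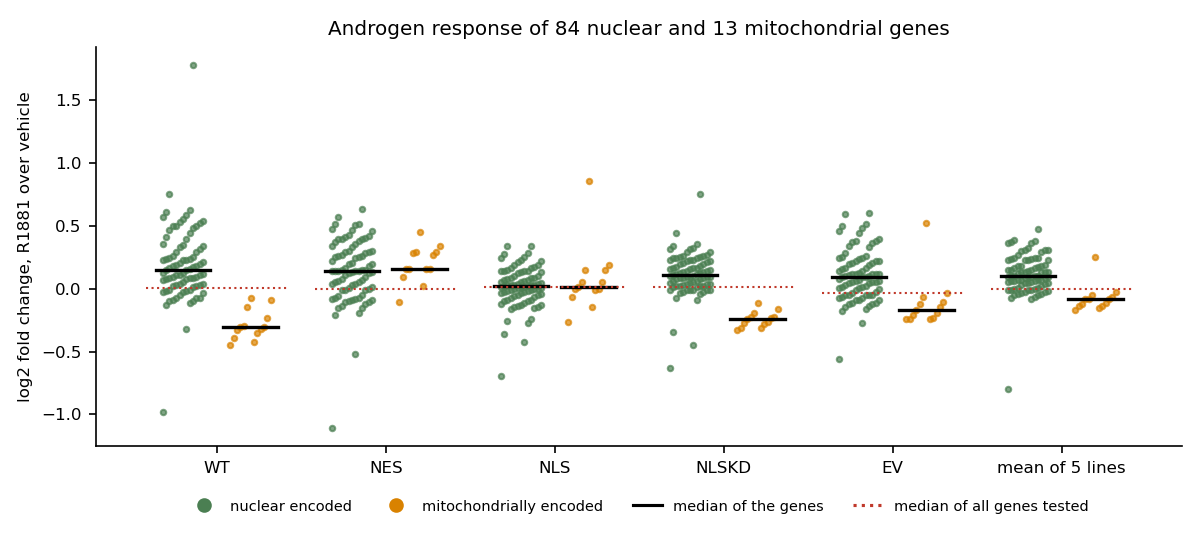
Log2 fold change of R1881 over vehicle (vertical) for 84 nuclear (green) and 13 mitochondrial (orange) genes in each line and as the mean of the 5 lines; each point is 1 gene, black bars are medians and the dotted line is the median of all genes tested. Nuclear medians lie between 0.02 and 0.15, mitochondrial medians change side between lines, and the lowest nuclear point of the mean is NDUFB4 at -0.79.

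Line by line, the mitochondrial median was -0.31 in WT, 0.16 in NES, 0.02 in NLS, -0.24 in NLSKD and -0.16 in EV, while the nuclear median was 0.15 in WT, 0.14 in NES, 0.02 in NLS, 0.11 in NLSKD and 0.10 in EV. In NLS the nuclear median turned to -0.06 with limma on FPKM. The 13 mitochondrial genes share their libraries' mitochondrial content, and their common sign within a line is not 13 independent observations. In single lines the intervals were wide, with a median 95% margin of 0.80 for the mitochondrial and 0.65 for the nuclear members, and within 2-fold for 2 of the 13 mitochondrial members in WT and 9 in EV.

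The rescue lines were then set against EV, which asks how returning mTOR to knockdown cells, in all compartments or in 1, bears on the chain. These comparisons share the EV libraries and are given side by side. Under R1881 the test called 1 member in WT (8.49% of all genes tested), 1 in NES (6.96%), 0 in NLS cells (6.23%) and 1 in NLSKD (5.75%). With vehicle it called 2 in WT (6.71%), 1 in NES (4.94%), 0 in NLS cells (4.57%) and 1 in NLSKD (4.01%). Every one of these calls was COX7B2 lower than in EV, except NDUFA4L2 in WT with vehicle. For NLS, 2 nuclear members had an unadjusted p below 0.05 under each treatment, and DESeq2 and limma each called 1.

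COX7B2 (ENSG00000170516, hg38 chromosome 4, 46734827 to 46909235) is known in normal tissue mainly from testis. Its raw counts under R1881 were 7, 2 and 2 in WT cells and 64, 79 and 62 in EV cells. With vehicle they were 2, 1 and 0 in WT cells and 58, 76 and 76 in EV cells. The groups were far apart, with EV over WT at 19.6 times under R1881 (95% counting interval 10.7 to 39.8) and 70.8 times with vehicle (23.9 to 346), intervals that cover counting error only. The fitted log2 fold changes were -4.29 ± 0.57 (edgeR adjusted p = 7.74e-06) and -6.03 ± 0.67 (adjusted p = 5.40e-07).

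The other rescue lines lay between WT and EV. In NES cells COX7B2 had 0.623, 0.415 and 0.738 CPM under R1881 and 1.003, 1.06 and 0.487 CPM with vehicle. NLS cells had 0.787, 1.77 and 0.717 CPM under R1881 and 0.609, 1.66 and 0.946 CPM with vehicle. NLSKD cells had 0.911, 1.30 and 0.509 CPM under R1881 and 0.816, 0.604 and 1.02 CPM with vehicle, against 2.58, 3.46 and 2.65 CPM in EV cells under R1881 and 2.23, 3.06 and 3.12 CPM in EV cells with vehicle. Every library of the 4 rescue lines lay below every EV library of the same treatment. The log2 fold changes against EV were -2.28 ± 0.48 in NES under R1881 (edgeR adjusted p = 0.00313) and -1.72 ± 0.47 in NES with vehicle (0.0307). For NLSKD they were -1.67 ± 0.47 under R1881 (adjusted p = 0.0328) and -1.77 ± 0.47 with vehicle (0.0301).

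For NLS the values were -1.42 ± 0.46 under R1881 (edgeR adjusted p = 0.0707) and -1.39 ± 0.47 with vehicle (0.0999). With the replicate number as a block over all 30 libraries, COX7B2 passed under R1881 (-1.46, edgeR adjusted p = 0.0290) and with vehicle (-1.43, 0.0401). The pairing check holds for NLS against EV, although not in every other comparison that the block spans. Under vehicle the block also called NDUFA13 (1.33, adjusted p = 0.0314), a gene of only 1.04 to 5.89 CPM in the NLS and EV vehicle libraries and one that shares exons with AC011448.1 and YJEFN3. The WT calls and the NES call under R1881 held with any single library left out. The NES call with vehicle and both NLSKD calls were each lost with 5 of the 6 libraries left out in turn (adjusted p up to 0.198). Only without EV vehicle replicate 1 were the vehicle calls kept, and only without NLSKD R1881 replicate 2 the other. Without the low-count filter these 3 calls were also lost (adjusted p = 0.059, 0.0584 and 0.0589).

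NDUFA4L2 (ENSG00000185633, hg38 chromosome 12, 57234903 to 57240715) encodes a homologue of NDUFA4 that is known to be induced in hypoxic cells. With vehicle it had 9.07, 19.2 and 11.0 CPM in WT cells, against 44.6, 73.0 and 17.9 CPM in EV cells. Under R1881 it had 15.6, 21.3 and 18.6 CPM in WT cells, against 51.5, 48.9 and 22.6 CPM in EV cells. The vehicle groups overlapped at 1 library each and the R1881 groups did not. The test called it with vehicle (-1.79 ± 0.53, edgeR adjusted p = 0.0389) and not under R1881 (-1.15 ± 0.52, adjusted p = 0.206), where it passed in the fit to those 2 groups only (-1.19, 0.0167) and without the low-count filter (-1.18, 5.24e-05). The vehicle call was lost when EV vehicle replicate 1 or 2 or WT vehicle replicate 1 or 3 was left out (adjusted p up to 0.271), and limma did not make it. In NES, NLS and NLSKD cells NDUFA4L2 overlapped EV under each treatment. The means under R1881 were 70.3 CPM in NES and 41.02 CPM in EV, a difference that edgeR without the low-count filter called higher (0.76, adjusted p = 0.0356). NDUFA4 itself had 214, 202 and 237 CPM in WT cells and 176.5, 267 and 202 CPM in EV cells with vehicle, which overlap.

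The edgeR fit of all 30 libraries with the low-count filter called no other member against EV. Other fits called some with vehicle in WT, among them NDUFB6 with DESeq2 (-0.38, adjusted p = 0.0392; 3 members in all) and ATP5MC1 (-0.81, 0.0156) and NDUFA8 (-0.79, 0.0206) with edgeR without the filter. NDUFB4 with vehicle averaged 485.8 CPM in WT and 540.2 CPM in NES, both apart from EV at 347.8 CPM. NLS (467.3 CPM) and NLSKD (467.7 CPM) overlapped EV. The replicate block called NDUFB4 higher than EV with vehicle in WT (0.50, edgeR adjusted p = 0.0253) and NES (0.64, 0.00515). It also called CYC1 in NES under R1881 (0.62, 0.0447). The pairing check does not hold in any of these comparisons. With vehicle the median log2 fold change of nuclear members was -0.18 in WT (19 of 84 above 0), -0.07 in NES, 0.12 in NLS cells and 0.01 in NLSKD. Under R1881 the nuclear medians were -0.10 in WT (27 of 84 above 0), -0.03 in NES, 0.03 in NLS cells and 0.03 in NLSKD. In WT the lowest complex medians were those of nuclear complex IV, -0.25 under R1881 and -0.37 with vehicle, and 13 of its 14 members lay below 0 under each treatment. With limma on FPKM the nuclear medians of NLS and NLSKD under R1881 changed sign, to -0.11 and -0.02.

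For the mitochondrial arm 0 of 13 members were called in each of these 8 comparisons, by edgeR in the fit of all 30 libraries with the filter, DESeq2 or limma, and MT-ATP8 alone had an unadjusted edgeR p below 0.05, in NES under each treatment. The medians under R1881 were -0.31 in WT, -0.01 in NES, 0.16 in NLS cells and 0.05 in NLSKD, and with vehicle -0.16 in WT, -0.37 in NES, -0.04 in NLS cells and 0.15 in NLSKD.

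MT-ATP8, an accessory membrane subunit of ATP synthase, was the mitochondrial member nearest to a call. It had 35.4, 56.7 and 44.3 CPM in NES cells under R1881, against 62.03, 129.9 and 113.5 CPM in EV cells. With vehicle it had 50.2, 25.7 and 31.4 CPM in NES cells, against 45.4, 83.2 and 83.8 CPM in EV cells. The groups were apart under R1881 and overlapped with vehicle. The log2 fold changes of -1.16 ± 0.45 and -0.98 ± 0.45 did not pass (edgeR adjusted p = 0.137 and 0.306). In the fit to those 2 groups only, the R1881 difference passed (-1.19, edgeR adjusted p = 0.0299). Without the low-count filter both passed (-1.19, edgeR adjusted p = 3.04e-05, and -0.99, 0.00140), as did MT-ATP8 in WT against EV under R1881 (-0.79), in NLS against EV with vehicle (-0.87) and under R1881 in NLS (0.86).

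Kinase activity and location of mTOR were compared through NLS against NLSKD and NLS against NES, each as the mean of both treatments. MTOR ran from 596 to 1340 CPM in NLS, from 647 to 1483 CPM in NLSKD and from 3183 to 7593 CPM in NES. Location and MTOR level therefore cannot be told apart in NLS against NES. In NLS against NLSKD 0 members were called, as were 0.0328% of all genes; 1 member had an unadjusted p below 0.05, and DESeq2 and limma called 0. The medians were 0.03 for nuclear members (-0.02 with limma) and -0.00 for mitochondrial members, and 68 of 84 nuclear and 12 of 13 mitochondrial intervals lay within 2-fold. In NLS against NES 0 members were called although 3.88% of all genes were, 1 had an unadjusted p below 0.05, and DESeq2 and limma called 0. There all 13 mitochondrial members had values above 0, with a median of 0.31, and the nuclear median was 0.13 with 61 of 84 above 0. NLS and NES overlapped in mitochondrial share under both treatments.

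Across all 10 groups at once, 24.6% of genes and 3 members differed, COX7B2 (edgeR adjusted p = 3.24e-07), NDUFB4 (6.76e-04) and NDUFA4L2 (0.0323). DESeq2 called 6 members, 1 of them mitochondrial, and limma 2.

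Genes that make, process or assemble the chain were counted from 6 lists. These genes were called in both directions under R1881. In the mean of the 5 lines the test called 6 of 21 tested regulators of mitochondrial transcription (5 higher, 1 lower), 5 of 22 genes of mitochondrial RNA processing and decay (2 and 3), 4 of 21 genes of the complex I assembly list (2 and 2), 6 of 37 assembly factors of complexes II to V (4 and 2), 7 of 77 mitochondrial ribosomal proteins (4 and 3) and 4 of 18 genes of the TCA cycle (4 and 0), beside 27.4% of all genes. The list medians lay between 0.04 and 0.12. PPARGC1A and MRPS24 were below the count filter.

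NDUFAF4, an assembly factor of complex I, was the most regular of these. It had 34.9, 26.9 and 29.96 CPM in WT cells under R1881 and 75.4, 65.5 and 72.5 CPM with vehicle. In EV cells it had 23.7, 35.1 and 29.3 CPM under R1881 and 50.7, 57.8 and 70.6 CPM with vehicle. No R1881 library reached the vehicle range in either line. It was called lower in all 5 lines, by log2 fold changes of -1.22 ± 0.19 in WT, -1.27 ± 0.19 in NES, -0.98 ± 0.19 in NLS, -0.92 ± 0.19 in NLSKD and -1.02 ± 0.19 in EV (edgeR adjusted p from 2.61e-05 to 0.00212), none of them lost with a library left out. Its NLS call was lost when the fit held those 2 groups only (adjusted p = 0.112). Of the other assembly factors of complex I, NDUFAF6 was lower (-0.46) and NDUFAF2 (0.42) and NDUFAF1 (0.22) higher in the mean of the lines. The NDUFAF1 call was lost in 18 of 30 cases with a library left out (edgeR adjusted p up to 0.0802) and without the low-count filter (0.222).

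NRF1, the regulator named above, was lower under R1881 (-0.59 ± 0.07 in the mean of the lines, edgeR adjusted p = 3.06e-07). In NLS cells it had 20.02, 18 and 18.6 CPM under R1881 and 38.1, 29.4 and 29.99 CPM with vehicle. NLSKD cells had 21.1, 14.7 and 20.4 CPM under R1881, against 37.5, 34.2 and 30.4 CPM with vehicle. EV cells had 13.4, 13.7 and 12.8 CPM under R1881, against 21.4, 17.3 and 21.3 CPM with vehicle. The treatments were apart in these 3 lines, where the changes of -0.78 ± 0.16, -0.86 ± 0.16 and -0.59 ± 0.16 passed (edgeR adjusted p = 0.00267, 0.00104 and 0.0193). NRF1 was not called in WT or NES, although the test for a response differing among the 5 lines called 0 of the 21 tested regulators. In WT cells NRF1 averaged 16.14 CPM under R1881 and 22.43 CPM with vehicle, and the groups were apart. In NES cells it averaged 15.64 and 18.65 CPM, and the groups overlapped. A link between NRF1 and NDUFB4 was not tested. With vehicle NRF1 was also higher in NLS than in EV (0.70 ± 0.16, adjusted p = 0.00810) and in NLSKD than in EV (0.77 ± 0.16, 0.00427). The NLS call against EV was lost without EV vehicle replicate 2 or NLS vehicle replicate 1 (adjusted p up to 0.0606), and the EV androgen call without any of 4 libraries, EV R1881 replicates 1 and 3 and EV vehicle replicates 1 and 3 (up to 0.0901). In an edgeR fit to the 2 groups alone the calls in NLS (adjusted p = 0.196) and EV (0.119) under R1881 and in NLS against EV (0.113) were lost. Without the low-count filter these 3 calls were lost too (adjusted p = 0.0541, 0.268 and 0.106), as was that of NLSKD against EV (0.0667). The other called regulators were higher: MTERF4 (0.45), GABPB1 (0.37), PPRC1 (0.29), ESRRA (0.32) and the mitochondrial DNA polymerase POLG (0.32). With single libraries left out the ESRRA call was lost in 17 of 30 cases (edgeR adjusted p up to 0.0917) and the POLG call in 4 (up to 0.0612).

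MRPS18A, a protein of the mitochondrial ribosome, was higher under R1881 in all 5 lines. It had 38.9, 34.8 and 39.8 CPM in NES cells under R1881 and 11.4, 17.4 and 14.04 CPM with vehicle. In EV cells it had 31.4, 26.9 and 29.3 CPM under R1881 and 11.3, 15.9 and 9.52 CPM with vehicle. Both pairs of groups were apart. The log2 fold changes were 1.19 ± 0.21 in WT, 1.41 ± 0.21 in NES, 0.83 ± 0.20 in NLS, 0.83 ± 0.20 in NLSKD and 1.25 ± 0.21 in EV (edgeR adjusted p from 2.56e-05 to 0.0140). The NLSKD call was lost with each of its 6 libraries left out (adjusted p up to 0.0955) and the NLS call with 4 of 6 (up to 0.103) and in the fit to those 2 groups only (0.244). Of the other 76 tested ribosomal proteins 6 were called in the mean, MRPL17 (0.46), MRPL32 (0.43) and MRPS36 (0.31) higher and MRPL35 (-0.38), MRPS6 (-0.34) and MRPS27 (-0.32) lower.

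REXO2, an exonuclease that clears short RNA in mitochondria and cytosol, was lower under R1881 and lower in rescue lines than in EV. In WT cells it had 48.8, 35.1 and 40.4 CPM under R1881 and 48.5, 52.3 and 57.9 CPM with vehicle. EV cells had 58.4, 90.9 and 76.2 CPM under R1881 and 130.1, 170.2 and 191 CPM with vehicle. All WT libraries lay below all EV libraries. The androgen change was called in NES (-0.80 ± 0.18, edgeR adjusted p = 0.00353) and EV (-1.12 ± 0.18, 6.69e-05). Against EV with vehicle the differences were -1.63 ± 0.18 in WT, -0.90 ± 0.18 in NES, -1.34 ± 0.18 in NLS cells and -1.21 ± 0.18 in NLSKD (adjusted p from 5.00e-07 to 0.00177), and none was lost with a library left out. The NES call was lost when the fit held those 2 groups only (adjusted p = 0.0811). Under R1881 it was called lower than EV in WT (-0.86), NLS (-0.75) and NLSKD (-0.61), and the NLSKD call was lost with 5 of 6 libraries left out (edgeR adjusted p up to 0.224). The NLS call under R1881 was lost without EV R1881 replicate 2 or NLS R1881 replicate 1 (adjusted p up to 0.0778) and in the fit to those 2 groups only (0.246).

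**Figure D5:**
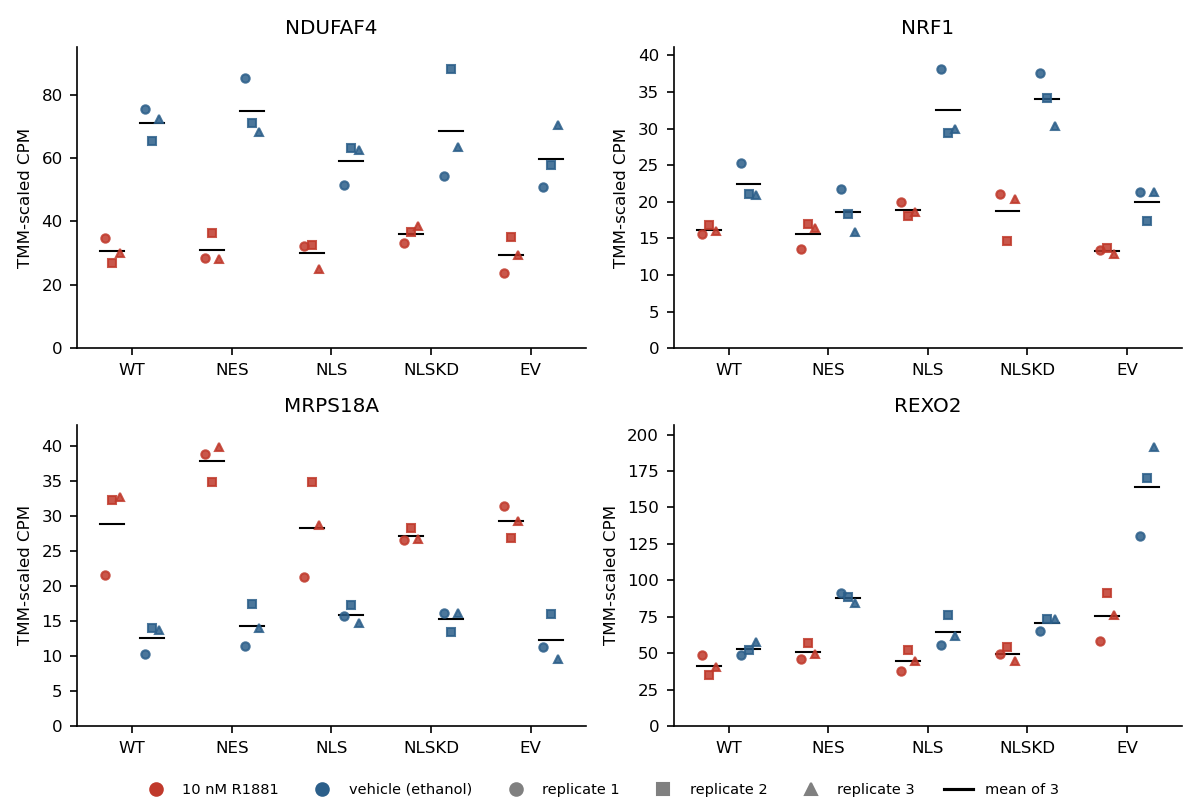
TMM-scaled CPM of NDUFAF4, NRF1, MRPS18A and REXO2 by line (horizontal) and treatment (R1881 left of vehicle); points are libraries, shapes are replicate numbers and lines are means of 3. NDUFAF4 is lower and MRPS18A higher under R1881 in all 5 lines, and REXO2 is highest in EV with vehicle, at 130.1 to 191 CPM.

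Other genes of the lists were called as well. Of the assembly factors of complexes II to V, CMC2 (0.66 ± 0.09), the copper chaperone COX17 (0.58 ± 0.17) and COX18 (0.36 ± 0.06) were higher and the complex III factor UQCC1 (-0.35 ± 0.07) lower in the mean of the lines (edgeR adjusted p from 3.84e-06 to 0.00958), together with COA4 (0.33) higher and the complex II factor SDHAF3 (-0.28) lower. The COA4 call was lost in 24 of 30 cases with a library left out (edgeR adjusted p up to 0.0993), with RLE factors (0.0528) and with limma (0.0677), and the SDHAF3 call without the low-count filter (0.0567). Of the RNA processing genes besides REXO2, PTCD2 (-0.32) and FASTKD3 (-0.32) were lower and FASTKD5 (0.28) and SLIRP (0.44), a partner of the RNA-stabilizing protein LRPPRC, higher. The FASTKD5 call was lost in 17 of 30 cases (edgeR adjusted p up to 0.0869) and without the filter (0.0517), and the SLIRP call in 21 of 30 (up to 0.0913) and with limma (0.0786). In the TCA cycle OGDH (0.38 ± 0.07), pyruvate carboxylase (PC, 0.40 ± 0.08), IDH2 (0.31 ± 0.10) and IDH3A (0.32 ± 0.11) were higher (adjusted p from 6.83e-05 to 0.0314). The IDH3A call was lost in 14 of 30 cases (edgeR adjusted p up to 0.0715) and with limma (0.0516). Lower in NLS than in NES cells were TIMMDC1, a complex I assembly factor (-0.53 ± 0.11, edgeR adjusted p = 0.00475), and DLAT, a core enzyme of pyruvate dehydrogenase (-0.69 ± 0.15, 0.00756). Without the low-count filter the TIMMDC1 call was lost (edgeR adjusted p = 0.0536). TIMMDC1 was also called lower than EV in NLS under both treatments and in NLSKD under R1881, and DLAT higher than EV in WT and NES with vehicle, each of these 5 calls being lost in 4 or more of 6 cases with a library left out.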

How the data were processed

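Gene counts and FPKM of 30 LNCaP libraries were analysed. Reads were paired, 150 bases, from total RNA, per the labels' protocols. The count table holds whole-number counts per gene that the authors made with featureCounts 1.5.0-p3 after HISAT2 2.0.5 alignment to hg38, tools and build as named in the submitters' processing notes. The sources used here do not give strand and multimapping settings, so copies and overlapping genes are uncertain. The FPKM values were deposited by the authors and served for levels between genes and for limma.

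Counts were fitted with edgeR 4.0.16 (R 4.3.3; filterByExpr, TMM, 1 mean per group over all 30 libraries, quasi-likelihood test), with Benjamini-Hochberg adjustment over 18296 genes and calls below 0.05. Standard errors follow from the F statistic, and intervals are 95%. CPM values use TMM-scaled totals. The script was tested on simulated data. Alternatives were DESeq2 1.42.0, RLE factors, mitochondrial genes left out of totals, no low-count filter, a replicate block, each library left out, a fit to the groups compared only, and limma 3.58.1 on log2(FPKM + 1).

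Members and lists were chosen with earlier results of these data known. Named were the 13 mitochondrial genes, isoform pairs of complex IV, CYCS, CYC1 and complex II, the highest and lowest member of each complex, up to 4 called members per comparison and direction by size and by adjusted p, any count of 5 or fewer, and up to 4 called genes per list by adjusted p. List genes beyond these, and the 4 shown per library, were chosen after their values were seen. Replicate numbers come from the labels. Libraries of the same number deviated together, with every correlation over 0.1, in 7 of 13 comparisons of 2 groups, 4 of them androgen comparisons (EV, WT, NES and NLSKD). The lowest chi-square per degree of freedom between replicates was 12.7, so no library was counted as a copy of another.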

Additional observations from a re-analysis of the deposited data

How the results depend on the processing

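No fold change of a called member or list gene reversed under the alternatives run. Small medians over the nuclear members changed sign with limma, as given above. The mitochondrial median of NLS against NLSKD also changed sign, from -0.0015 to 0.0482 with the replicate block. Counts of members called moved as follows. With the replicate block they were 1 in EV, 1 in NLS and 1 in NLSKD for R1881 against vehicle, 10 in the mean of the 5 lines, 2 in NES and 1 in NLS against EV under R1881, 6 in WT, 2 in NES and 2 in NLS against EV with vehicle, and 5 for any difference; it changed the count in no other comparison. Without the low-count filter they were 2 in WT and 1 in NLS for R1881 against vehicle, 12 in the mean of the lines, 3 in WT, 3 in NES and 0 in NLSKD against EV under R1881, 4 in WT, 1 in NLS and 0 in NLSKD against EV with vehicle, 1 in NLS against NES and 21 for any difference. Fitting only the groups compared gave 2 in WT, 2 in NES and 0 in NLSKD against EV under R1881 and 0 in NES against EV with vehicle. limma gave 1 in NLS against EV under R1881, and with vehicle 1 in WT and 1 in NLS. DESeq2 gave 1 in NLS against EV under each treatment, 3 in WT against EV with vehicle and 6 for any difference. Leaving out single libraries gave 0 to 1 in WT and NLS for R1881 against vehicle, 1 to 6 in the mean of the lines, 0 to 1 in NLS and NLSKD against EV under R1881, 1 to 2 in WT and 0 to 1 in NES and NLSKD against EV with vehicle, and 2 to 3 for any difference. With the block more of all genes were called in every comparison too. They were 6461 in the mean of the lines, 2058 in WT against EV with vehicle and 6815 for any difference, against 5013, 1228 and 4498 without it. Calls over all genes in the other fits are not given here, so those member counts stand without a background share. The cause of these moves was not tested. All 52 arm sums under other settings and all 156 with a library left out moved by less than the spread. Of the lists, the mitochondrial ribosomal proteins called in the mean of the lines moved to 13 with the block and 12 without the filter, against 7. With 3 libraries a group, the 95% margin of a mitochondrial member in 1 line had a median of 0.80 on the log2 scale, which limits what these comparisons can detect.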
